A study of Mus musculus with 2 samples.

Results

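Antisense RNA genes are transcribed from the strand opposite to another gene, and 2913 of the 51229 annotated genes on the 19 autosomes carry this type in GENCODE mouse release 21. Every such gene was taken, whatever its mark, and its start is the annotated 5′ end on build mm10 (GRCm38). The study profiled histone H3 trimethylated at lysine 27 (H3K27me3) by ChIP-seq, which sequences DNA bound to histones caught with an antibody, in E14TG2a.4. This is a line of male mouse embryonic stem cells from strain 129/Ola with a labelled age of 3.5 days, embryonic. Its 1 group holds 2 biological replicates with no second genotype, treatment or time, and both come from the same cell line, so the spread between them is that of this line alone. A start counted as marked if its window, reaching 1 kb to either side (2001 bp), overlapped by at least 1 bp a peak in each replicate's own list, and it had no peak when neither list reached the window. The autosomal lists held 62896 peaks over 53.1 Mb in replicate 1 and 97283 peaks over 57.8 Mb in replicate 2, with 38.8 Mb common to both. The number of reads behind either list is unknown, so no peak can also mean too few reads. Pou5f1, Nanog and Zfp42, which mark stem cells, had no peak at their starts, the stem cell gene Esrrb was marked, and so were Gata6, Sox17, Pax6 and T, which mark early lineages. Peak lists give no expression, and whether any antisense RNA was made in these cells was not measured.

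H3K27me3 is laid down by Polycomb repressive complex 2 and is found at silent or weakly transcribed genes, many of them developmental regulators, where in embryonic stem cells it tends to cover CpG-rich starts. An antisense RNA can overlap its partner head to head, sharing the stretch around both starts, or can begin deep inside the partner or beyond its 3′ end. Some antisense RNAs act on the chromatin of their own locus. Airn and Kcnq1ot1, both made from the paternal chromosome, silence imprinted neighbours in cis.

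The stretches around 5 antisense starts are shown because they span the patterns described below. Each runs 5′ to 3′ on the strand of the antisense gene from 200 bases before the start through its first 100 bases, was read from RefSeq's GRCm38.p6 assembly, and has every CpG in capitals. Gm27197 lies at chr2:38348217-38348516 on the minus strand, inside the gene of the forebrain and eye regulator Lhx2. It stood first among antisense starts by the mean percentile of its peak signal in the replicates, and has 26 CpG sites here. Gm11536 lies at chr11:96342009-96342308 on the minus strand inside Hoxb3, was marked and has 24. Gm29430 lies at chr6:52182910-52183209 on the plus strand inside Hoxa3, was marked and has 1. D030055H07Rik lies at chr9:106148487-106148786 on the plus strand, was marked while its partner Glyctk had no peak, and has 12. Kcnq1ot1 lies at chr7:143296450-143296749 on the minus strand in an intron of Kcnq1, had no peak while Kcnq1 was marked, and has 11.
Gm27197: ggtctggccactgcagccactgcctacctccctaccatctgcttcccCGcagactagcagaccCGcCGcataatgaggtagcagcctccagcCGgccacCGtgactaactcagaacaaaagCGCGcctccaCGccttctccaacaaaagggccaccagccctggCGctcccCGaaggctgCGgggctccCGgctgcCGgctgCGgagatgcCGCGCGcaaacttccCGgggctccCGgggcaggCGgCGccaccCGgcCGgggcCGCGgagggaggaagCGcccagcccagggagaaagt
Gm11536: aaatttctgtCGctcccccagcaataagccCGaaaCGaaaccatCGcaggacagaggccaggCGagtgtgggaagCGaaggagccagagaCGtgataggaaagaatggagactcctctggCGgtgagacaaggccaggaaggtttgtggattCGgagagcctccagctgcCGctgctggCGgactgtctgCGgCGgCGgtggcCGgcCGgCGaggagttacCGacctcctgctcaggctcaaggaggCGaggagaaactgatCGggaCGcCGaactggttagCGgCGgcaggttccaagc
Gm29430: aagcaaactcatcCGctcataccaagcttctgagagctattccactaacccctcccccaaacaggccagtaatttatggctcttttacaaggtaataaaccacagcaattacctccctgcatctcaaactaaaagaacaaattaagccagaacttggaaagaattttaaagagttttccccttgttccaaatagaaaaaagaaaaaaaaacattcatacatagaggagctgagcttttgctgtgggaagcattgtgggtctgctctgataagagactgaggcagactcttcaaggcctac
D030055H07Rik: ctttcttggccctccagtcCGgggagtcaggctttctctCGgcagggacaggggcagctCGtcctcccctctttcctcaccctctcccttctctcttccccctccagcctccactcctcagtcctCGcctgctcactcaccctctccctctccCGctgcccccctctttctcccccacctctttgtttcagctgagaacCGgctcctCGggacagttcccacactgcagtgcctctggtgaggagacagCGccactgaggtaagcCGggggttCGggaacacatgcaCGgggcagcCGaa
Kcnq1ot1: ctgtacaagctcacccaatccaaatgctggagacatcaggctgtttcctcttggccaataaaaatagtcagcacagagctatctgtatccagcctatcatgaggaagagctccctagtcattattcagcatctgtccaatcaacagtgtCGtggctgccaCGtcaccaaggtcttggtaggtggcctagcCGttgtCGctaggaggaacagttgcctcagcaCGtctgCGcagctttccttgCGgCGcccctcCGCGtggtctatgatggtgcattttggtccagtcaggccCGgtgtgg
Over this 300-base stretch the median was 11 CpG sites at marked antisense starts and 5 at those without a peak, so Gm29430 lies far below and Kcnq1ot1 at the middle of the marked ones.

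Of the 2913 antisense starts, 605 were marked in both replicates (20.8%, exact 95% interval 19.3% to 22.3%). The same call reached 16.0% of all annotated gene starts, 26.8% of protein-coding starts (5579 of 20807) and 12.1% of the starts of long intergenic RNA genes (lincRNAs, 628 of 5209). Antisense starts therefore lay between lincRNA and coding starts. This order held within each replicate: the shares were 22.2% of antisense, 28.6% of coding and 14.2% of lincRNA starts in replicate 1, and 25.5%, 31.0% and 17.7% in replicate 2. The antisense share minus the coding share was -6.42 percentage points in replicate 1 and -5.43 points in replicate 2. These intervals, here and below, are Clopper-Pearson intervals for counting error only, and genes are not replicates. Peaks were found at 646 antisense starts in replicate 1 and 744 in replicate 2, of which the 605 common ones made up 93.7% and 81.3%. A further 41 had a peak in replicate 1 alone, 139 in replicate 2 alone and 2128 in neither. At the edge of the call, the marked Gm37974 had 9 covered bases in replicate 1 and 987 in replicate 2, while Uchl1os, without a peak, lay 1031 bp from the nearest base covered in both. Windows of 30 antisense starts shared bases with that of another antisense gene, 7 of them marked.

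Where antisense starts were marked, the mark was broad. At marked antisense starts the median covered length was 1452 bp in replicate 1 and 1391 bp in replicate 2, against 1261 bp and 1209 bp at marked coding starts and 1012 bp and 994 bp at marked lincRNA starts. At least 50% of the window was covered in both replicates at 378 antisense starts, 62.5% of the marked ones, and at 53.8% of marked coding starts; over all starts these were 13.0% of antisense and 14.4% of coding starts. The whole window was covered at 56 antisense starts, 1.92% of all, against 1.45% of coding starts. The highest peak signal in the window, a value of the authors with a scale not given in the sources used here, had medians of 7.67 in replicate 1 and 7.81 in replicate 2 at marked antisense starts, against 7.69 and 7.81 at marked coding starts. Across the 605 marked antisense starts the signal of the replicates correlated at 0.891 by Spearman's rho and 0.887 by Pearson's r, a description across genes that share the same libraries.

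The mark ran over the antisense start itself, whereas coding starts had a dip there. Bases covered in both replicates were present at the start of 59.0% of marked antisense genes, at 54.0% of positions 1 kb upstream and at 56.9% of positions 1 kb downstream. For marked coding genes the values were 37.0% at the start, 48.4% at 1 kb upstream and 67.8% at 1 kb downstream. The 186 marked antisense genes with no coding transcript start within 2 kb had 45.2% at the start, 37.1% at 1 kb upstream and 53.8% at 1 kb downstream, so the profile of these genes also had no minimum at the start.

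**Figure D1:**
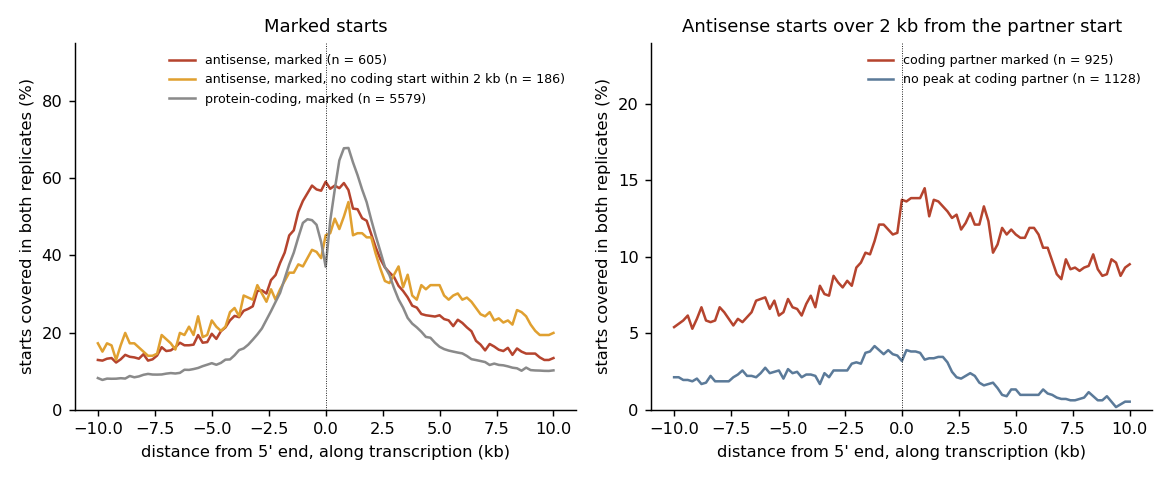
Share of starts (percent, vertical axis) whose base at each distance from the 5′ end (kb along the direction of transcription, horizontal axis) was covered in both replicates. Left, marked antisense, marked antisense far from coding starts, and marked coding starts, where the line for coding starts falls to 37.0% at 0; right, antisense starts over 2 kb from their coding partner's start, by the partner's call, where the line for marked partners stays above that for partners without a peak at every distance drawn.

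An overlapping protein-coding gene on the opposite strand was found for 2699 antisense genes (92.7%), and where there were several (228 genes) the partner was the gene with the largest overlap. The other 214 had none, and 35 of these were marked (16.4%). The 2353 different partners were marked more often than coding genes at large: 948 of them (40.3%) against 26.8% of all coding starts. The antisense gene started inside its partner in 2194 pairs, in an intron of it in 1600 and in an exon in 594, and past its 3′ end in 505. It ran across the partner's start in 698 pairs. The median distance between the starts was 26749 bp. A single partner had more than 1 antisense gene in 284 cases, which involve 630 antisense genes, so the pairs are not all independent.

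An antisense start was marked more often where its partner's start was marked. With a marked partner, 423 of 1138 antisense starts were marked (37.2%), against 96 of 1366 (7.03%) with a partner without a peak. Partners with a peak in 1 replicate lay between, with 51 of 195 (26.2%). In 205 of the 423 the starts were close enough for their windows to share the same peak bases. Where the starts were up to 2 kb apart, 205 of 213 antisense starts were marked with a marked partner (96.2%) and 1 of 238 with a partner without a peak (0.42%). Windows this close share bases, so these calls are not separate measurements.

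The relation was read where the windows are apart, and it faded with distance. Over 2 to 5 kb, 49 of 63 antisense starts were marked with a marked partner (77.8%) and 10 of 87 with a partner without a peak (11.5%). Over 5 to 20 kb the counts were 72 of 187 (38.5%) and 22 of 309 (7.12%). Over 20 kb they were 97 of 675 (14.4%) and 63 of 732 (8.61%). Without antisense starts within 2 kb of any coding transcript start, a gap remained over 20 kb. The counts there were 65 of 557 (11.7%, interval 9.12% to 14.6%) and 21 of 502 (4.18%, interval 2.61% to 6.32%). Beyond 100 kb, with all antisense starts kept, the share was 8.54% (28 of 328, interval 5.75% to 12.1%) with a marked partner. It was 8.09% (19 of 235, interval 4.94% to 12.3%) with a partner without a peak. A difference at that distance was not detectable with these numbers of genes, and both shares lie below the 16.0% of all gene starts.

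**Figure D2:**
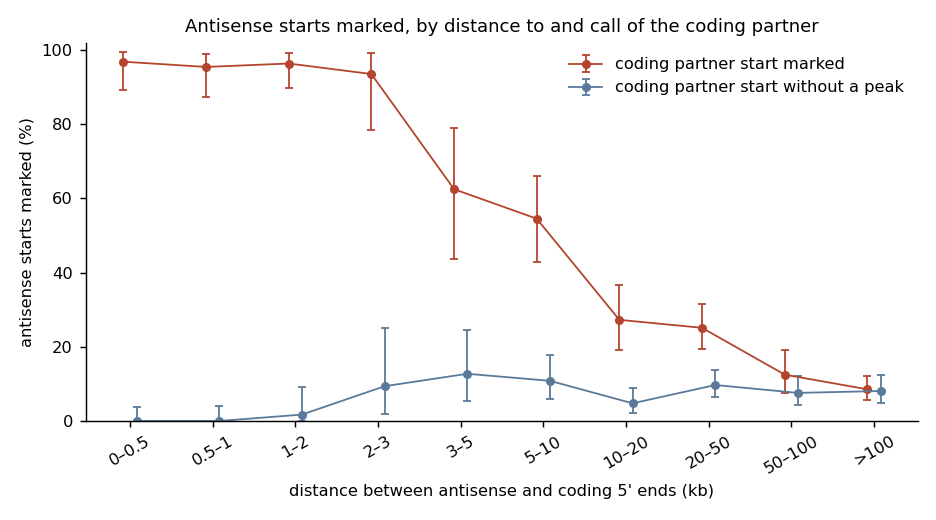
Share of antisense starts marked in both replicates (percent, vertical axis) by the distance between the antisense and the coding 5′ end (kb, classes on the horizontal axis), for partners with a marked start (red) and without a peak (blue). Bars are exact 95% binomial intervals for counting error; the red points stay above 90% up to 3 kb and meet the blue ones beyond 100 kb, at 8.54% and 8.09%.

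Over all pairs with starts more than 2 kb apart, 218 of 925 antisense starts were marked with a marked partner (23.6%), against 139 of 1293 (10.8%) with a partner that was not marked in both replicates. The difference between these shares was 13.7 percentage points by replicate 1 alone and 19.2 points by replicate 2 alone, so it was larger than the 5.58-point gap between the replicates. Other coding starts lay near many of these antisense starts. Leaving out every antisense start within 2 kb of any coding transcript start, 123 of 699 were marked with a marked partner (17.6%). With a partner not marked in both replicates 50 of 840 were (5.95%), and with a partner without a peak 28 of 729 (3.84%). The bases around antisense starts showed the same order. At antisense starts over 2 kb from the partner's start, the start itself was covered in both replicates at 13.7% with a marked partner and at 3.19% with a partner without a peak. At 10 kb downstream, which is toward the partner's start, the values were 9.51% and 0.53%, and at 10 kb upstream 5.41% and 2.13%. For pairs about 10 kb apart, the downstream position falls in the partner window whose call formed the groups. The downstream contrast is therefore partly set by the grouping. Antisense genes that ran across the start of a marked partner more than 2 kb away were marked in 52 of 87 cases (59.8%), and those that ended before it in 166 of 838 (19.8%); with a partner without a peak the counts were 16 of 146 (11.0%) and 79 of 982 (8.04%). Genes that run across the partner's start also tend to begin nearer to it, and the part of distance in this was not tested.

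Read from the antisense side, 423 of the 570 marked antisense genes with a partner had a marked partner (74.2%), against 630 of 1964 antisense genes without a peak (32.1%). Of the 423, 205 lay up to 2 kb from the partner's start, where windows share bases. For starts more than 2 kb apart the counts were 218 of 357 (61.1%) and 626 of 1719 (36.4%). Over 20 kb they were 97 of 178 (54.5%) and 523 of 1234 (42.4%). Counting any overlapping coding gene and not only the largest overlap, 449 of the 570 marked antisense genes had a marked one. Genes with several overlapping coding genes have more than 1 way to reach this count. The matching count for antisense genes without a peak is not given here.

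Pairs with both starts marked mostly lay in a single stretch of mark at short range and in separate stretches at long range. Bases covered in both replicates were joined into domains where gaps were up to 3 kb. For marked pairs up to 2 kb apart, whose windows share bases, this rule largely fixes a single domain in advance. It also favours a single domain over 2 to 5 kb. A single domain touched both windows in 202 of 205 pairs up to 2 kb apart (98.5%), in 48 of 49 over 2 to 5 kb (98.0%), in 47 of 72 over 5 to 20 kb (65.3%) and in 8 of 97 over 20 kb (8.25%). The median covered share of the stretch between the starts was 79.2%, 79.3%, 64.3% and 11.3% in these classes, in the same order.

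The HOX clusters, which set position along the body axis, hold 4 of the 5 longest domains. All 8 antisense genes that overlap a HOX gene were marked, beside 20.8% of all antisense starts, as were all 39 HOX genes, beside 26.8% of coding starts. The domain over Hoxb was 137.7 kb long and held the starts of Hoxb5os, Gm11536 and Hoxb3os. That over Hoxa was 134.7 kb long and held Hotairm1, Gm15050, Hoxaas3 and Gm29430. That over Hoxd was 127.4 kb long and held Gm28793 and Hoxd3os1, and the longest domain, 172.0 kb over Hoxc, held no antisense start. Hoxb3os starts past the 3′ end of Hoxb3, 31365 bp from its start, and was covered over 1565 bp in replicate 1 and 1581 bp in replicate 2, against the whole window at Hoxb3 in both. Gm29430, shown above with a single CpG, was covered over 1955 bp and 1864 bp, and its observed-to-expected CpG ratio of 0.04 was the lowest among the antisense starts of these clusters. Hoxd3os1 had the smallest cover of the HOX antisense starts in replicate 2, 1201 bp, and 1648 bp in replicate 1.

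Among 18 antisense genes named from a list of known loci, 16 were marked, beside 20.8% of all antisense starts, and Kcnq1ot1 and Nespas had no peak. Most of these loci were picked for known developmental partners. At the homeobox genes Evx1, Pax6, Vax2 and Emx2, the antisense start lay 1334, 1430, 937 and 263 bp from the coding start and both were marked. Evx1os and Pax6os1 had the whole window covered in both replicates. Emx2os, at the cortical regulator Emx2, had 1843 bp covered in replicate 1 and 1946 bp in replicate 2, and so had Emx2, since the windows share most of their bases. Nkx2-2os starts 10160 bp from the annotated 5′ end of Nkx2-2, which directs ventral spinal cord and islet cell fates, and 2018 bp from another transcript start of it, in an exon, and was covered over 1985 bp and 1921 bp. Dlx6os1, an RNA of the developing forebrain, starts 8258 bp from Dlx6, past its 3′ end, and was covered over 1795 bp and 1800 bp, against 1767 bp and 1604 bp at Dlx6. At several named genes the partner by largest overlap is not the gene they are named for (Hoxb5os is paired with Hoxb6), or another transcript start of the partner lies nearer than its annotated 5′ end. Dlx1as overlaps Metap1d most, which had a peak in replicate 1 alone, but also Dlx1, which was marked over 2001 bp and 1946 bp. Wt1os overlaps Gm11060, without a peak, and starts 19 bp from a transcript start of the kidney and gonad regulator Wt1. Igf2os overlaps Gm49394, without a peak, and Igf2, a fetal growth factor, which was marked over 1845 bp and 1861 bp. Zeb2os starts 26 bp from another transcript start of Zeb2, a regulator of neural crest and epithelial state, and was marked over 2001 bp and 1688 bp, while the 5′ end annotated for the Zeb2 gene, 6688 bp away, had no peak.

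**Figure D3:**
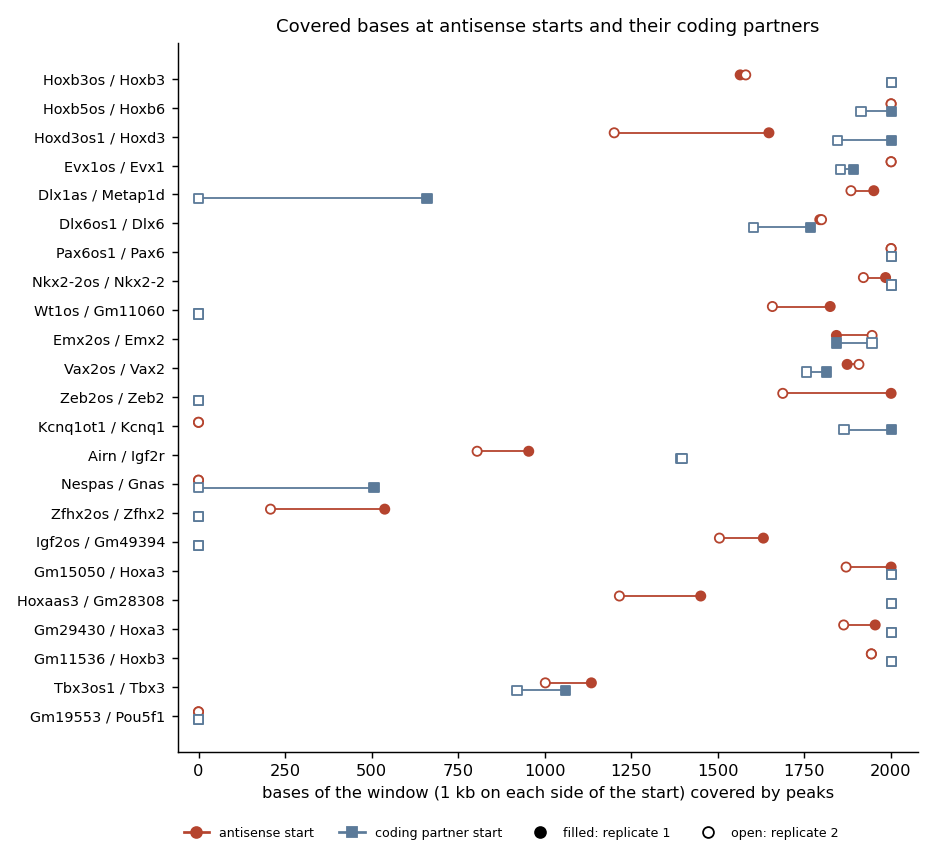
Bases of the 2001 bp window covered by peaks (horizontal axis) at the antisense start (red circles) and at the start of its coding partner by largest overlap (blue squares), for the named known loci and the antisense genes of the HOX and pluripotency lists. Filled symbols are replicate 1 and open ones replicate 2 (an open symbol hides an equal filled one), and the pair of Hotairm1 is not drawn; Kcnq1ot1, Nespas and Gm19553 sit at 0 in both replicates.

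The 12 highest antisense starts were ranked by the mean, over the replicates, of the percentile of their highest peak signal in each list. Gm27197, in an intron of Lhx2 and 9035 bp from its start, had a signal of 19.2 in replicate 1 and 19.7 in replicate 2 with the whole window covered, against 11.6 and 15.0 at the start of Lhx2, and it lay 2443 bp from the nearest coding transcript start, so it was higher than its partner in both replicates. Gm11536 had 17.0 and 20.5, and C130021I20Rik, which overlaps no coding gene but starts 682 bp from the limb regulator Lmx1b, had 19.7 and 16.2 in a domain of 94.7 kb. Antisense genes of Lhx5 (Gm27199), Lhx3 (Gm27196), Six3 (Gm28528), Rax (Raxos1), Hoxa3 (Gm15050) and Hoxb3 (Hoxb3os) were also among the 12, with signals between 14.4 and 18.1, and each of these partners was marked. Gm15841 had 16.4 and 17.9, against 6.30 and 3.90 at its partner Cfap65, 33228 bp away in a domain that does not reach it. Gm15469 and B130046B21Rik were the exceptions with a partner without a peak.

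The calls of the strands went apart at 721 pairs more than 2 kb apart: 95 had a marked antisense start and no peak at the partner, and 626 a marked partner and no peak at the antisense start. The 95 became 40 when any annotated transcript start of a gene could carry the mark, 143 by replicate 2 alone and 142 by replicate 1 alone. Another 218 were marked at both and 987 had a peak at neither. The 95 were 8.42% of the 1128 antisense starts with a partner without a peak. No peak at the antisense start was found for 626 of 925 with a marked partner (67.7%). With a partner without a peak it was found for 987 of 1128 (87.5%). In the 95, a transcript start of the partner itself lay within 2 kb of the antisense start in 38, one of another coding gene in 29, and none in 28. In the 626 these counts were 76, 39 and 511, and the median distance between the starts was 78920 bp. Over all 2218 pairs more than 2 kb apart they were 436 (19.7%), 243 (11.0%) and 1539 (69.4%).

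Among the 95, the 8 with the most covered antisense windows included several beside another coding start. Gm10584 starts inside Fgfr2, a fibroblast growth factor receptor, 807686 bp from its annotated 5′ end and 613 bp from a transcript start of Chst15, a sulfotransferase gene. It also overlaps Chst15, which was marked over 1753 bp and 1396 bp. Gm10584 was covered over 2001 bp in both replicates, as was Gm17182, 164 bp from another transcript start of the phosphate transporter gene Slc34a2. A830011K09Rik starts 106 bp from another transcript start of Lmo3 and was covered over 1994 bp and 1941 bp. Gm15469, in an intron of the muscle gene Trim54, starts 1485 bp from Ucn, which encodes the stress peptide urocortin, and had a signal of 15.3 and 15.0. B130046B21Rik starts past the 3′ end of Prkag1, a subunit gene of the energy sensor AMPK, and 901 bp from Ddn, and also overlaps Ddn, which was marked over 1654 bp and 1783 bp. D630044L22Rik, paired with Capn15, also overlaps A930017K11Rik, which was covered over 2001 bp and 1946 bp.

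The 28 marked antisense starts with neither a coding transcript start within 2 kb nor a peak at the partner were less covered, the medians being 538 bp in replicate 1 and 580 bp in replicate 2, against 1038 bp and 1178 bp at the 123 where both starts were marked and no coding transcript start lay within 2 kb either. D030055H07Rik, whose start is shown above, was covered over 2001 bp in both replicates with a signal of 10.7 and 13.3, in a domain of 3785 bp, while Glyctk, the gene of glycerate kinase, had no peak at its start 9451 bp away. This was the only one of the 28 covered in full in both replicates. Others lay in domains of a neighbouring regulator: Gm38604, a partner of Fam172a, starts 7275 bp from Nr2f1 in a domain of 52.0 kb and was covered over 1920 bp and 1664 bp, and Gm47071, a partner of H2afy, starts 5175 bp from Pitx1, a hindlimb regulator, in a domain of 26.3 kb and was covered over 1818 bp and 1727 bp. Gm29434, of 260 bp in an exon of the kinase gene Mknk1, lay in a domain of 79.4 kb and was covered over 1855 bp and 2001 bp. 4930586N03Rik starts 49685 bp from the nearest coding transcript start, that of Zfp322a, and was covered over 1751 bp and 1755 bp. Zfhx2os and Gm20687 share the same peak bases, 538 bp and 208 bp, and count as 2 of the 28. Gm38604, Gm47071, 4930586N03Rik and Gm20687 were picked after their values were seen.

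Of the reverse kind, with a marked partner and no peak at the antisense start, the 8 with the highest mean percentile of partner signal included Kcnq1ot1. Its start lies in an intron of Kcnq1, a potassium channel gene, 190187 bp from the Kcnq1 start, which was covered over 2001 bp in replicate 1 and 1865 bp in replicate 2, and the nearest base covered in both replicates lay 2771 bp from the antisense start. Its CpG ratio of 0.45 is close to the median of marked antisense starts, 0.49. Gm16796, 15499 bp from the start of the prefoldin subunit gene Pfdn4, and Gm29724, 88643 bp from Adamts8, had CpG ratios of 0.74 and 0.75 and lay 367 bp from another transcript start of Pfdn4 and 559 bp from Zbtb44. Gm29724 also overlaps Zbtb44, which had no peak either. Gm10578 at the neural regulator Ebf3 and 4933406B15Rik at Galnt16 had ratios of 0.10 each. Gm40578 at Tnfaip2, 4930563N14Rik at Cdc20b and Gm26716 at Sdc3 completed the 8, with ratios between 0.18 and 0.43. The nearest common base lay between 1423 bp and 51595 bp from these 8 starts.

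Antisense genes of imprinted partners were split. The list of imprinted genes used here, with 20 coding genes, leaves out Cdkn1c. Of the 7 antisense genes that overlap a gene of the list, 3 were marked (42.9%, interval 9.90% to 81.6%, beside 20.8% of all antisense starts and 45% of the list's coding starts), namely Airn, Igf2os and 4933417O13Rik. Another 3 had no peak (Kcnq1ot1, Nespas and Gm44296 at Mest), and Gm28821 at Kcnq1 had a peak in replicate 2 alone. Airn starts in an intron of Igf2r, 28353 bp from its start, and was covered over 954 bp in replicate 1 and 805 bp in replicate 2, against 1394 bp and 1397 bp at Igf2r, in a separate domain of 2603 bp. Nespas, antisense at the Gnas locus, lay 1583 bp from the nearest common base, and Gnas had 507 bp covered in replicate 1 and none in replicate 2. 4933417O13Rik starts in a Kcnq1 intron 258263 bp from the Kcnq1 start and within the domain of 112.1 kb that reaches Cdkn1c, an imprinted gene that holds back the cell cycle, and was covered over 2001 bp and 1973 bp with a CpG ratio of 0.12. Gm44732, 1301 bp from the start of Cdkn1c, lay in the same domain and was covered over 2001 bp and 1954 bp. Marking of 1 parental chromosome, or of part of the cells, cannot be told apart from weaker marking in these lists.

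The 8 pairs marked at both starts over the longest distance had starts at least 338046 bp apart, and none had both in a single domain. Gm42303 starts in an intron of the receptor phosphatase gene Ptprd, 1760730 bp from its annotated 5′ end, and was covered over 1704 bp in replicate 1 and 1618 bp in replicate 2. It lies 1251 bp from another transcript start of Ptprd. 2810432F15Rik in Auts2 and Gm16958 in Ank2 likewise lie 1167 bp and 900 bp from another transcript start of their partner. Gm16564, in an exon of the kinesin gene Kif26b and 388489 bp from its start, is 71731 bp from the nearest coding transcript start and was still covered over 2001 bp in both replicates, with the Kif26b start covered over 2001 bp and 1876 bp. The other 4 were Gm5441 at Ptprn2, Gm37446 at Gm37388, Gm29626 at Kcnma1 and Gm14372 at Shank2, with distances from 405005 bp to 851302 bp.

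Marked antisense starts were richer in CpG than the others and lay nearer to coding starts. The median CpG ratio over 500 bp on each side was 0.49 at marked antisense starts and 0.25 at those without a peak, against 0.63 and 0.50 at coding starts and 0.38 and 0.21 at lincRNA starts. By class of CpG ratio, 8.78% of antisense starts were marked under 0.2, 15.1% between 0.2 and 0.4, 37.5% between 0.4 and 0.6, and 37.4% at 0.6 and over. The coding shares in these classes were 7.90%, 22.5%, 46.9% and 31.6%, so antisense starts were below coding starts in the middle classes and above them in the highest. Of pairs more than 2 kb apart, antisense starts with a marked partner exceeded those with a partner without a peak in each class, with 13.2% against 3.75%, 18.2% against 5.68%, 47.1% against 12.2%, and 49.5% against 24.8%.

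**Figure D4:**
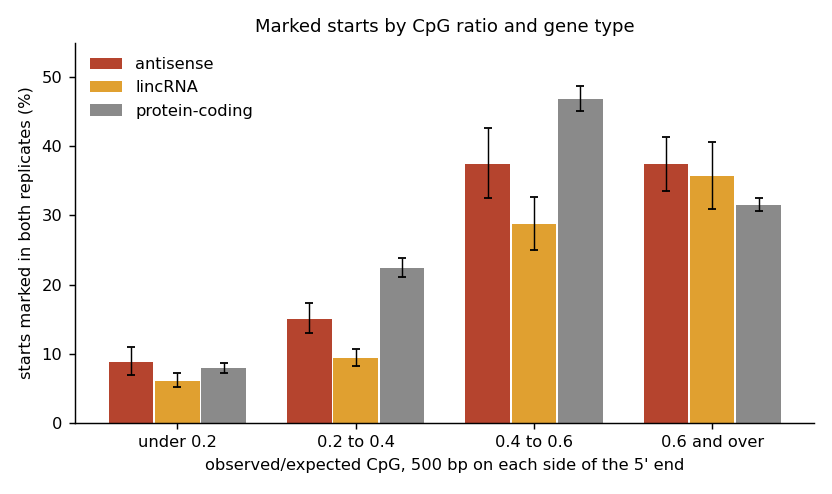
Share of starts marked in both replicates (percent, bars from 0) by class of the observed-to-expected CpG ratio around the 5′ end, for antisense, lincRNA and protein-coding genes. Error bars are exact 95% binomial intervals for counting error; antisense bars reach 37.5% and 37.4% in the upper classes, the coding bar being higher between 0.4 and 0.6 and lower at 0.6 and over.

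The nearest coding transcript start lay a median of 812 bp from marked antisense starts and 6142 bp from those without a peak. Within 200 bp of a coding transcript start 27.2% of antisense starts were marked, at 201 to 1000 bp 36.5%, at 1001 to 2000 bp 39.2%, at 2001 to 5000 bp 19.4%, at 5001 to 20000 bp 11.2%, and farther away 7.24% (50 of 691). The median CpG ratio in these classes was 0.68, 0.53, 0.27, 0.23, 0.25 and 0.22. The share marked was highest at 1001 to 2000 bp (interval 32.8% to 45.9%), where the ratio was below that of the nearer classes. That interval overlaps the one at 201 to 1000 bp (32.5% to 40.7%), so the order of these 2 classes is not resolved. The ratio covers 500 bp to each side, and the call 1 kb. Antisense starts without a peak lay a median of 49285 bp from the nearest base covered in both replicates, against 62474 bp for coding starts without a peak. Gene length and exon number differed little, with medians of 5283 bp and 2 exons for marked antisense genes and 5875 bp and 3 exons for those without a peak. By chromosome the share marked ran from 7 of 92 on chromosome 16 (7.61%) to 24 of 88 on chromosome 18 (27.3%), where coding starts reached 23.0% and 37.2%.

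Grouped by the partner's role, the antisense share ran in the same order as that of the coding genes, HOX first and cell cycle last. The pluripotency list with its 2 antisense genes was the exception. These shares were not split by distance and include pairs up to 2 kb apart, whose calls can rest on the same peaks. At developmental transcription factors, 49 of 66 antisense starts were marked (74.2%), beside 84.0% of the factors' own 213 starts and the 20.8% of all antisense starts. These include antisense genes of Gata3, Prox1, Tbx15, Nkx2-1, Pax2 and Tfap2a, which was overlapped by 3. The 16 without a peak include Sox5os1 to Sox5os5, all inside Sox5, a regulator of cartilage and neurons, and Hnf4aos at the liver factor Hnf4a. At signalling genes, 21 of 39 were marked (53.8%), beside 73.2% of the 194 coding starts. Antisense genes of Wnt6, Wnt5a, Wnt7b, Shh, Dhh, Fgf10 and Notch3, which encode ligands of the Wnt, Hedgehog and fibroblast growth factor pathways and a Notch receptor, were marked, while those of Bmp4, Bmp5, Bmp6, Slit2 and Fgf14 had no peak. The lists were formed from name stems and also take in unrelated genes such as Gatad2b and Ephx4. An overlapping gene of the list was itself marked at 45 of the 49 and at 17 of the 21 marked antisense starts. Gm16764 counts under both lists, and Gm10584 counts under Fgfr2, whose start had no peak. At genes of the cell cycle, replication and the ribosome, 3 of 30 were marked, beside 10.3% of the 321 coding starts; these were 4931419H13Rik at Ccna1, 9330179D12Rik at Ccnd2 and A230087F16Rik at Cdc42bpb. Of the antisense genes of pluripotency regulators, Tbx3os1 was marked over 1135 bp and 1002 bp, as was Tbx3, and Gm19553 at Pou5f1 had no peak, as Pou5f1 had none. Members listed here beyond the named genes were picked after their calls were seen.

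Starts with a peak in a single replicate were narrow at each gene type. Coding starts had covered medians of 295 bp for replicate 1 alone and 280.5 bp for replicate 2 alone. LincRNA starts had 331 bp and 260.5 bp. Antisense starts had medians of 299 bp for the 41 seen in replicate 1 alone and 262 bp for the 139 seen in replicate 2 alone. The 4 with the most covered bases were all seen in replicate 2 alone: Gm49227 in App, with 1234 bp, Gm28821 in Kcnq1, with 1198 bp, Gm32569 at Dpt, with 906 bp, and Gm44570 in Homer2, with 882 bp. None had a covered base in replicate 1.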

How the data were processed

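Peak lists of H3K27me3 ChIP-seq were analysed for 2 biological replicates of 1 group, assigned by their labels. The calls used the list made for each replicate alone. Each peak in the deposited lists has a signal, the authors' own value, used only to rank and describe peaks, and a deposited −log10 q, used as a threshold in an alternative. The genome build is mm10, per the file headers. Aligner, peak caller and thresholds were not given in the sources used here, the depth per library is unknown, and no control sample was analysed here. Partners and domains were computed from GENCODE M21 and the lists with Python 3.11.15, NumPy 2.4.6, SciPy 1.17.1, pysam 0.24.0 and Matplotlib 3.10.9. The calls were checked on simulated peaks. The design has no second condition, so no test was run, and shares have exact 95% intervals.

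The members, lists and the rule for named genes were chosen with earlier results of these data known. Named were 32 fixed loci where typed antisense (18), the 12 highest by mean signal percentile, the 8 most covered or highest discordant pairs of each kind, the 8 farthest marked pairs, starts in the 5 longest domains, the 4 widest single-replicate starts, and antisense genes of HOX and pluripotency genes. Alternatives changed the window, the threshold, the cover, the lists, the replicates, the start and the choice of partner. Some values of named genes are not reported here.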

Additional observations from a re-analysis of the deposited data

How the results depend on the processing

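No paired analysis was possible because the series has 1 group. Marked antisense starts numbered 378 with 50% of the window covered, against 605, and from 646 to 744 with a replicate left out; under the other settings the count stayed within 1.5 times. Antisense starts were marked more often with a marked partner than with one not marked under each of the 12 settings tried, so no direction changed, but the shares moved by more than 1 SD of the replicates' values under many. With a marked partner the share was 43.3% with windows of 2.5 kb, 33.2% with 50% cover, 45.6% with the relaxed lists, 44.6% with the replicated list, 40.8% with every overlapping coding gene and 50.2% with overlapping exons, and from 38.4% to 43.1% with a replicate left out. With a partner not marked in both replicates the main share was 9.42% (147 of 1561). It was 8.96% with 0.5 kb, 10.2% with 2.5 kb, 6.39% with 50% cover, 12.9% with relaxed lists and 11.2% with the replicated list. Any transcript start gave 5.07%, every coding gene 9.90% and overlapping exons 10.3%. The coding gene of the nearest start, an alternative chosen after seeing the data, gave 7.96%. With a replicate left out the share ran from 9.95% to 10.4%. For starts more than 2 kb apart, the share with a marked partner was 30.6% with 2.5 kb, 17.4% with 50% cover, 34.7% with relaxed lists, 33.5% with the replicated list and 30.7% with overlapping exons, and from 25.1% to 31.4% with a replicate left out. With a partner not marked it was 9.27% with 0.5 kb, 12.2% with 2.5 kb, 5.90% with 50% cover, 15.0% with relaxed lists, 13.0% with the replicated list, 5.87% with any transcript start, 11.7% with every coding gene, 12.7% with overlapping exons, 9.50% with the nearest start, and from 11.4% to 12.1% with a replicate left out. The 2 kb limit was kept between the annotated 5′ ends under each setting. Windows of 2.5 kb can therefore still share bases up to 5 kb apart, and with any transcript start the starts compared can lie within 2 kb. Calls under those settings are not fully separate measurements. Pairs with a marked antisense start and no peak at the partner numbered 143 with the replicated list, 40 with any transcript start, since starts of other partner transcripts then count, and 63 with overlapping exons, fewer pairs being tested, and from 142 to 143 with a replicate left out. Pairs of the reverse kind numbered 267 with overlapping exons and from 713 to 731 with a replicate left out. Other causes were not tested. Of 47 named marked starts, 43 kept the call with 50% cover, 45 with the replicated list and all 47 under the other settings; of 14 named starts not marked, between 8 and 14 kept theirs. Unknown depth limits what a missing peak shows.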
